A study of Mus musculus with 4 samples.

Results

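The genes described here govern the step at which a cell leaves the division cycle. They are 10 named genes, chosen by their place in that pathway, though earlier results of these data were known. The set holds the CDK inhibitors Cdkn1a, Cdkn1b, Cdkn1c and Cdkn2c, the D cyclins Ccnd1, Ccnd2 and Ccnd3, and the pocket proteins Rb1, Rbl1 and Rbl2. All 10 were found among the 32285 genes of the feature tables and had unique molecular identifiers (UMIs, one per captured transcript) in each of the 4 libraries. The libraries are single-cell RNA profiles of the leg muscles of E18.5 mouse fetuses, 2 of them wild type (WT) and 2 lacking the long non-coding RNA gene SYISL (KO). WT and KO fetuses were littermates from matings of SYISL heterozygotes, so all groups share heterozygous parents, and each fetus was typed from its tail and its leg muscles were taken separately. The tissue was digested with trypsin and DNase I before capture. SYISL itself was not among the rows used, so the deletion was not analysed here. Each library is labelled as 1 replicate of 2 per genotype, so tests between genotypes measure the spread between these few fetuses.

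Cyclin D bound to CDK4 or CDK6 starts the phosphorylation of the pocket proteins, which otherwise hold E2F transcription factors and keep S-phase genes silent. The CDK inhibitors block these kinases: Cdkn1a (p21), Cdkn1b (p27) and Cdkn1c (p57) bind cyclin-CDK complexes broadly, and Cdkn2c (p18) binds CDK4 and CDK6. In the muscle lineage, Pax7-positive progenitors divide, and myoblasts that switch on Myog leave the cycle for good before they fuse, a step in which p21, p57 and Rb1 are known to act.

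The promoters of 6 of the 10 genes had entries in the RefSeq table (9 entries, build GRCm38.p6, each 300 bases from 250 before to 50 after a start site). Matches to 3 short motifs were counted on both strands, and their letters were chosen after these promoters had been seen: an E2F core (TTTCGCG), an E-box with a GC core (CAGCTG) and a cell cycle homology region (CHR, TTTGAA). The E2F core was held by 279 of 32851 promoters of this length (0.849%) and, among the members, by one Cdkn2c entry and by Rbl1. The E-box was held by 5355 promoters (16.3%) and, among the members, by one Cdkn1a entry and by Rbl1. The CHR was held by 5878 promoters (17.9%) and by Rbl2 alone among the members, on the other strand, and the motifs do not overlap one another in the entries shown. The promoters below are those of the 2 members whose level rose with Mki67 and Top2a in each class tested, Cdkn2c and Rbl1, and of Cdkn1a, which was higher in Myog-positive cells. Motif letters are in capitals, and a match describes the letters only.
Cdkn2c, chr4:109665323-109665622, minus strand: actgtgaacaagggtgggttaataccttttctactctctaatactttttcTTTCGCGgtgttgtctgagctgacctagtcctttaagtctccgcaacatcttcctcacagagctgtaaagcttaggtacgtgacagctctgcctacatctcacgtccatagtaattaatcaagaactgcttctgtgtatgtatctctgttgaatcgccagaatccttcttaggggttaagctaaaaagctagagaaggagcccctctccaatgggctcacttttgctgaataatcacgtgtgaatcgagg
Rbl1, chr2:157204485-157204784, minus strand: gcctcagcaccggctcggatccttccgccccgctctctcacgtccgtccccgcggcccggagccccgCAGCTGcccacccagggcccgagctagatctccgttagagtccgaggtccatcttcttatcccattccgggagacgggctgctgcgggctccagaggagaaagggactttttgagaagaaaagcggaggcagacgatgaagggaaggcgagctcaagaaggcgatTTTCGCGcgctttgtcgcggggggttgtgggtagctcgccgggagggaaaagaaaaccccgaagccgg
Cdkn1a, chr17:29090729-29091028, plus strand: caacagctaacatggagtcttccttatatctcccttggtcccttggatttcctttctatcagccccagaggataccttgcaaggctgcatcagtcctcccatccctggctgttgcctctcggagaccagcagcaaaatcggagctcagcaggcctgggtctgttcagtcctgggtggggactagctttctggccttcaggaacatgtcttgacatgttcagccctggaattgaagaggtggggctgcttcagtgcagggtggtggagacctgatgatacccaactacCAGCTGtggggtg
Cdkn1b, Ccnd3 and the other Cdkn2c and Cdkn1a entries held none of the 3 motifs, and no entry was used for Cdkn1c, Ccnd1, Ccnd2 or Rb1.

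The libraries held 9528 to 11670 barcodes and 109653824 to 126257094 UMIs, and the cell filter kept 8515 and 8177 WT and 9816 and 10461 KO cells. Median UMIs per kept cell ran from 9118 to 11427. Any pair of libraries shared 15 to 27 barcodes among kept cells. KO replicate 2 stood apart in Xist, a transcript of the inactive X chromosome, with 131038 Xist UMIs against 0 to 5 in the other libraries. Xist was found in 98.2% of its cells. The labels do not give fetal sex, so its part in differences between genotypes cannot be told apart from that library. All results between genotypes were therefore also computed without KO replicate 2. Values in a row of 4 are in the order WT replicate 1, WT replicate 2, KO replicate 1 and KO replicate 2. They are CPM, a gene's UMIs per 1000000 UMIs of all genes, summed over the cells of that kind in that library, and an error after ± is the SD of the 4 libraries unless named as a standard error (SE).

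Cells were placed in classes by clusters and marker genes. The 10 genes and the genes that follow Mki67 and Top2a took no part in the clustering that gave these classes. The myogenic-like class (Pax7, Myf5, Myod1, Myog and other markers) held 1484, 1317, 2046 and 1922 cells, and the fibro-adipogenic progenitor (FAP)-like class, stromal cells marked by Pdgfra and its companions, held 3777, 3477, 4745 and 4353. Myogenic markers summed to 2723 to 3017 CPM in the myogenic-like class. FAP markers summed to 797 to 1079 CPM there and to 25651 to 29651 CPM in the FAP-like class. Myog was read at 828 CPM in myogenic-like cells and at 6.17 CPM in FAP-like cells. In droplet data a low CPM in a class can be free RNA from other cells, and the values by class below are levels, given with no test.

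Among the CDK inhibitors, Cdkn1c (mm10 chr7:143458339-143461050, an imprinted gene) was the inhibitor with the most UMIs in muscle cells. Its level was 5550.3, 6089, 5435 and 6276 CPM in myogenic-like cells and 3523, 3770.0, 3545 and 3809 CPM in FAP-like cells, and these ranges do not overlap. Chondrocyte-like cells came next at 1512 ± 83.7 CPM, followed by glial-like (1089 CPM) and tenocyte-like cells (1078 CPM), whose ranges overlap. Macrophage-like cells were lowest at 244 ± 21.2 CPM. Cdkn1a (chr17:29090976-29100727), the p53-responsive inhibitor, was highest in mast-, macrophage- and chondrocyte-like cells (264, 262 and 259.9 CPM, with overlapping ranges). Its level in myogenic-like cells was 166, 156, 201 and 164 CPM. These values lie below every macrophage-like and chondrocyte-like library, overlap the mast-like class and lie above all 4 libraries of the FAP-like class (38.4, 49.9, 46.7 and 54.6 CPM).

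Cdkn1b (chr6:134920401-134925513), the inhibitor that accumulates in many resting cells, had the smallest ratio of highest to lowest class mean among the inhibitors. Glial-like cells were highest in mean at 160.0, 111, 157 and 95.9 CPM, myogenic-like cells were at 60.4, 57.6, 60.1 and 47.2 CPM, and most neighbours in the order overlap. Cdkn2c (chr4:109660876-109667189) was at 81.7 ± 2.95 CPM in glial-like, 81.6 ± 7.57 CPM in chondrocyte-like and 61.7 ± 7.35 CPM in myogenic-like cells, and at 37.2 ± 2.36 CPM in FAP-like cells.

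The D cyclins divided the classes differently. Ccnd1 (chr7:144929931-144939925), the growth factor-induced D cyclin, was highest in glial-like cells (1085, 1223, 1114 and 1117 CPM) and next in endothelial-like cells (465, 570.3, 514 and 584 CPM), with no overlap. In myogenic-like cells it was 29.5, 44.3, 31.7 and 54.7 CPM, with both replicate 2 libraries above both replicate 1 libraries. Ccnd2 (chr6:127125162-127152193) was highest in chondrocyte-like and tenocyte-like cells (451 and 435 CPM) and lowest in mean in myogenic-like cells at 14.7, 22.6, 17.9 and 20.6 CPM, a range that overlaps the macrophage-like class. Ccnd3 (chr17:47505051-47599691), the D cyclin of differentiating muscle, was highest in FAP-like (215, 229, 217 and 223 CPM) and then myogenic-like cells (197, 192, 187 and 201 CPM), apart from the neutrophil-like cells, which had under 50 cells in some libraries.

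Because 3′ UMI counts do not scale with transcript length, the D cyclins can be set against one another as shares of their summed UMIs. In myogenic-like cells Ccnd3 made up 81.7, 74.1, 79.1 and 72.8% of D cyclin UMIs, Ccnd1 12.2, 17.1, 13.4 and 19.8% and Ccnd2 6.10, 8.74, 7.56 and 7.44%. The mean Ccnd3 share was 46.6% in FAP-like cells, where Ccnd2 made up 38.0%. Ccnd1 made up most D cyclin UMIs in endothelial-like (72.3%), glial-like (71.5%) and macrophage-like cells (67.6%). Ccnd2 did so in mast-like (78.2%), tenocyte-like (70.7%), chondrocyte-like (66.0%) and smooth muscle or pericyte-like cells (60.1%).

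Of the pocket proteins, Rb1 (chr14:73183673-73325822), the retinoblastoma protein, was highest in muscle cells. It was 177, 206, 183 and 174 CPM in myogenic-like and 23.8, 23.7, 23.4 and 23.9 CPM in FAP-like cells, with macrophage-like cells next in order at 109 ± 13.3 CPM. All 4 myogenic-like libraries lay above every library of every other class compared. Rbl1 (p107, chr2:157145893-157204534), the pocket protein made mostly in S phase, ranged over class means from 8.68 CPM in mast-like to 25.6 CPM in myogenic-like cells. Rbl2 (p130, chr8:91070057-91123844), the pocket protein of resting cells, was lowest in mean in myogenic-like cells (21.0, 17.8, 19.3 and 16.0 CPM) and highest in tenocyte-like and FAP-like cells (28.9 CPM in the latter).

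**Figure D1:**
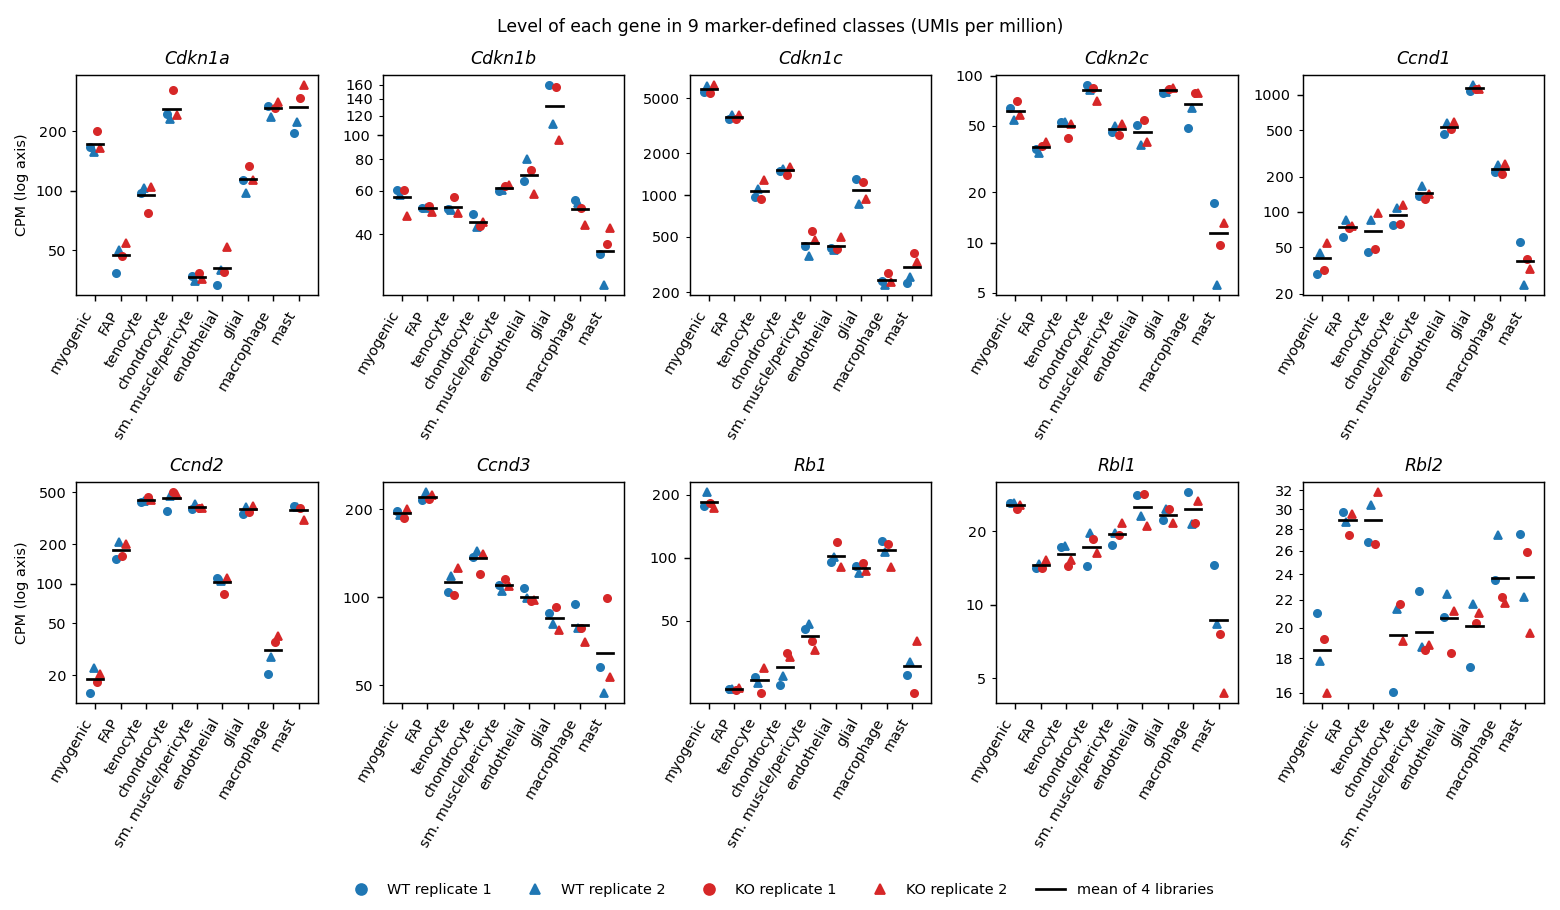
Each panel plots 1 gene's level in CPM on a log axis (y) in 9 marker-defined classes (x), with 1 point per library and a bar at the mean of the 4 libraries. Cdkn1c and Rb1 are highest in myogenic-like cells (5838 and 185 CPM), where Ccnd2 is lowest in mean (14.7 to 22.6 CPM).

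Within the myogenic-like class, clusters were named as stages from lists of marker genes. The stages were progenitor-like (3705 cells), cycle-led (cell cycle genes, 1853 cells), myoblast-like (1068 cells) and myotube-like (143 cells). Rb1 was 514, 552, 522 and 461 CPM in the myoblast-like stage, 252 CPM in the myotube-like, 159.7 in the cycle-led and 77.4 in the progenitor-like stage, with no overlap between neighbours. Cdkn1a had the same low end, going from 91.0 CPM in the progenitor-like to 358 and 388 CPM in the myoblast-like and myotube-like stages, the last 2 overlapping. Cdkn1c was 8775, 9289.7, 8828 and 9422 CPM in the myoblast-like stage and 5069.6 to 5542 CPM in the others, which overlap one another. The other inhibitors were low in the myoblast-like stage. Cdkn1b was highest in the cycle-led stage (76.4 CPM) and lowest in mean in the myoblast-like (24.4 CPM). Cdkn2c was 149 CPM in the cycle-led and 4.27 CPM in the myoblast-like stage. Ccnd3 made up 89.0% of D cyclin UMIs in the myoblast-like stage. The myotube-like stage had 35, 18, 32 and 58 cells and FAP markers at 8004 to 14337 CPM, against 267 to 309.8 CPM in the myoblast-like stage. Their part in its Ccnd2 level, 70.4 CPM in mean against 6.57, 11.4, 5.23 and 4.83 CPM, was not tested. Nor was it tested for its levels of Rb1 and Cdkn1c, which FAP-like cells carry at 23.7 and 3662 CPM. Stages are clusters of these same cells, so the levels are a description.

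Mki67 and Top2a encode proteins of dividing cells. Cells with 2 or more UMIs of these 2 genes together (high) were set against cells with 0 (low) of the same class and library, which gave 504, 476, 734 and 714 high and 827, 668, 1106 and 992 low myogenic-like cells. In myogenic-like cells 9 of the 10 genes differed, 3 higher and 6 lower in high cells, where 56.0% of all tested genes differed, so the count of calls says little by itself. The changes of Cdkn2c and Rbl1 were the largest. Cdkn2c was 137, 111, 145 and 114 CPM in high and 8.81, 6.99, 11.2 and 8.65 CPM in low cells (log2 fold change 3.80 ± 0.069 SE, adjusted p = 3.76e-20). Rbl1 was 46.5, 43.2, 43.2 and 38.4 CPM in high and 9.34, 10.0, 9.20 and 13.2 CPM in low cells (log2 fold change 2.01 ± 0.10 SE, adjusted p = 1.35e-12). For both genes every high value lies above every low value. Cdkn1b was also higher in high cells, at 77.9, 70.4, 75.5 and 60.5 CPM against 47.5, 46.6, 46.8 and 36.1 CPM (log2 fold change 0.67 ± 0.055 SE, adjusted p = 2.22e-09). High cells had more UMIs per cell (11300.0 to 14841 in median against 7662 to 9994), and the same 9 members were called when the groups were set on cells thinned to 5000 UMIs. In proportion, Ccnd1, Ccnd2 and Cdkn1a moved most of these 9, to log2 changes of -0.50, -1.28 and -0.13.

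The D cyclins were all lower in the high myogenic-like cells. Ccnd2 was 8.11, 15.4, 13.3 and 12.5 CPM in high and 16.4, 29.7, 19.1 and 27.3 CPM in low cells (log2 fold change -0.92 ± 0.11 SE, adjusted p = 5.83e-07). Ccnd3 was 174, 164, 161 and 182 CPM against 221, 218, 211 and 216 CPM (log2 fold change -0.36 ± 0.035 SE, adjusted p = 3.17e-08), with no overlap. Ccnd1 changed by -0.29 ± 0.058 SE on the log2 scale (adjusted p = 2.46e-04), and it did not fall evenly. Over cells with 0, 1, 2 to 4, 5 to 9, 10 to 19 and 20 or more Mki67 and Top2a UMIs its mean level was 43.1, 46.2, 62.0, 44.1, 32.9 and 23.2 CPM, and in FAP-like cells 72.3, 78.4, 89.1, 109.8, 75.4 and 51.7 CPM. In both classes the middle bins were highest in mean and the top bin lowest. Cdkn2c was higher at each step, from 8.91 to 164 CPM in myogenic-like and from 5.58 to 231 CPM in FAP-like cells, and so was Rbl1, from 10.4 to 51.7 and from 8.52 to 43.9 CPM.

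**Figure D2:**
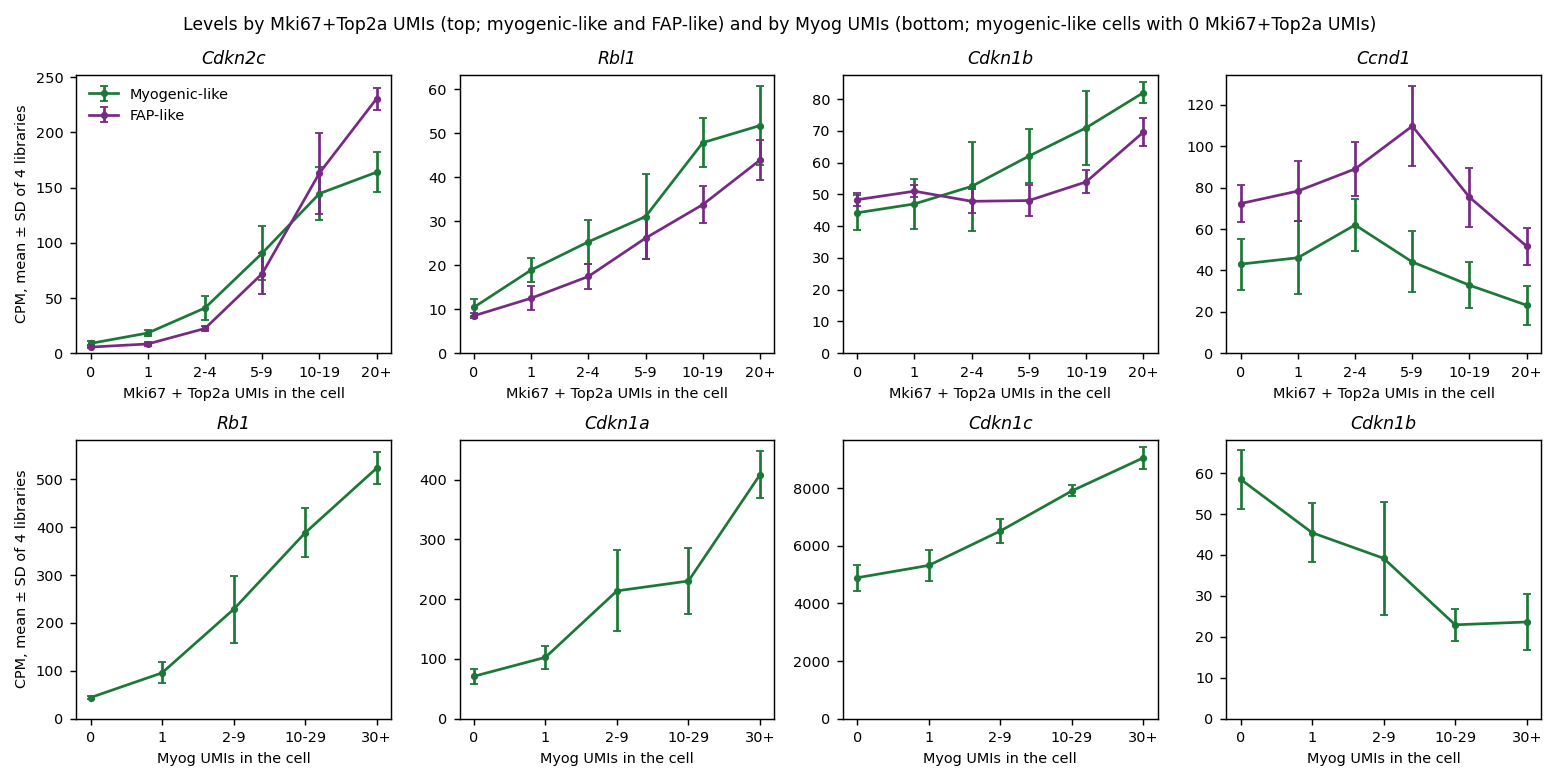
The upper panels plot mean level in CPM (y) against the cell's Mki67 plus Top2a UMIs (x) for myogenic-like and FAP-like cells, and the lower panels plot it against Myog UMIs in myogenic-like cells with no Mki67 or Top2a UMI; bars are SDs of the 4 libraries. Cdkn2c and Rbl1 climb with Mki67 plus Top2a, and Rb1 climbs from 43.9 to 524 CPM with Myog while Cdkn1b falls from 58.5 to 23.6 CPM.

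Rb1, Cdkn1a and Cdkn1c were lower in the pooled high myogenic-like cells. For Rb1 and Cdkn1a the direction was opposite in cells with 0 Myog UMIs. Rb1 was 150.0, 164, 148 and 151 CPM in high and 201, 252, 220.0 and 206 CPM in low cells (log2 fold change -0.53 ± 0.037 SE, adjusted p = 1.67e-10), and Cdkn1a changed by -0.21 ± 0.041 SE (adjusted p = 1.82e-04). Myog was 347 CPM in high and 1311 CPM in low cells, and the part of Myog-expressing cells in the pooled changes was not tested. The comparison was also made in cells with 0 Myog UMIs, a split added after the values were seen. In it 9 members and 45.3% of all tested genes were called. There Rb1 was higher in high cells, at 92.5, 92.8, 88.7 and 70.7 CPM against 39.4, 48.1, 46.1 and 42.0 CPM (log2 fold change 0.98 ± 0.072 SE, adjusted p = 6.66e-13). Cdkn1a was likewise higher in high cells, at 139, 106, 164 and 105 CPM against 75.3, 63.0, 86.1 and 58.6 CPM (log2 fold change 0.87 ± 0.058 SE, adjusted p = 5.34e-14). Both genes thus reversed between the pooled and the Myog-negative comparison, with ranges that do not overlap in the latter. Cdkn1c stayed lower in high cells in both (-0.31 ± 0.018 SE pooled, -0.076 ± 0.019 SE in Myog-negative cells), as did Ccnd1, Ccnd2 and Ccnd3, and Cdkn2c, Rbl1 and Cdkn1b stayed higher.

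In cells with 2 or more Myog UMIs, 8 members differed between Mki67 and Top2a high and low, 3 higher and 5 lower, with 47.1% of all tested genes called. Cdkn2c (4.24 ± 0.14 SE, adjusted p = 4.82e-17), Rbl1 (3.25 ± 0.19 SE) and Cdkn1b (1.07 ± 0.12 SE) were higher in high cells. Rb1 was 351, 430.2, 401 and 393 CPM in high and 440.0, 501, 475 and 396 CPM in low cells (log2 fold change -0.26 ± 0.055 SE, adjusted p = 5.05e-04), ranges that overlap. Ccnd3 (-0.49 ± 0.067 SE), Ccnd2 (-0.84 ± 0.23 SE), Cdkn1a (-0.27 ± 0.057 SE) and Cdkn1c (-0.22 ± 0.022 SE) were lower. All 4 values of Rb1 in Myog-positive high cells lie above those of Myog-negative cells of either kind.

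Myog-positive cells (274, 259, 350 and 373) were then compared with Myog-negative cells (525, 381, 700 and 580), both with 0 Mki67 and Top2a UMIs. Of the 10 genes 3 were higher and 6 lower in the Myog-positive cells, against 60.9% of all tested genes called. For those 9 the 4-library ranges did not overlap. The share of all genes without overlap was not computed, so that count says little about the members as a set. Rb1 was 440.0, 501, 475 and 396 CPM in Myog-positive and 39.4, 48.1, 46.1 and 42.0 CPM in Myog-negative cells (log2 fold change 3.48 ± 0.063 SE, adjusted p = 1.98e-19). Cdkn1a was 321, 315, 405 and 326 CPM against 75.3, 63.0, 86.1 and 58.6 CPM (log2 fold change 2.39 ± 0.064 SE, adjusted p = 4.44e-17). Cdkn1c was 8138, 8788, 8261 and 8672 CPM against 4551, 5137, 4484 and 5406 CPM (log2 fold change 0.91 ± 0.031 SE, adjusted p = 1.70e-15). These 3 rose together in every library, and the largest of their log2 changes was that of Rb1.

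The genes that were lower in Myog-positive cells came from all 3 families. Cdkn1b, the p27 inhibitor, was 27.3, 32.1, 21.6 and 22.0 CPM against 61.9, 59.6, 64.4 and 48.1 CPM (log2 fold change -1.08 ± 0.10 SE, adjusted p = 2.13e-08), opposite in direction to Cdkn1a and Cdkn1c. Rbl1 was 2.99, 2.92, 4.99 and 5.19 CPM against 12.9, 16.0, 12.1 and 20.7 CPM (log2 fold change -1.80 ± 0.20 SE, adjusted p = 1.92e-07). Ccnd1 was 19.6, 24.0, 18.0 and 31.4 CPM against 39.8, 66.6, 43.5 and 79.5 CPM (log2 fold change -1.18 ± 0.10 SE, adjusted p = 1.87e-09), with replicate 2 above replicate 1 in both genotypes and both kinds of cell. Ccnd2 (-1.11 ± 0.14 SE), Cdkn2c (-0.94 ± 0.20 SE) and Ccnd3 (-0.23 ± 0.053 SE) also fell, the last of these least. Rbl2 did not pass the test (log2 fold change -0.11 ± 0.14 SE, adjusted p = 0.511).

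By number of Myog UMIs (0, 1, 2 to 9, 10 to 29 and 30 or more), Rb1 averaged 43.9, 95.6, 228, 388 and 524 CPM. Cdkn1a averaged 70.7, 102, 214, 230.3 and 408 CPM, and Cdkn1c 4895, 5323, 6519, 7912 and 9064 CPM. Ccnd1 was about level to the 2 to 9 bin (57.4, 71.7 and 61.6 CPM) and lower beyond it (32.7 and 12.2 CPM). Myog-positive cells also had more UMIs per cell (10059 to 11676 in median against 7045 to 9220.0). Transcripts of dissociation stress, 12 genes with Fos and Jun among them, were lower in Myog-positive cells, by the same test, in 12 of 12 cases (median log2 change -0.99 against -0.009 over all tested genes) and summed to 4069 to 5573 CPM against 6247 to 9129 CPM. Their part in the changes of the 10 genes was not tested.

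**Figure D3:**
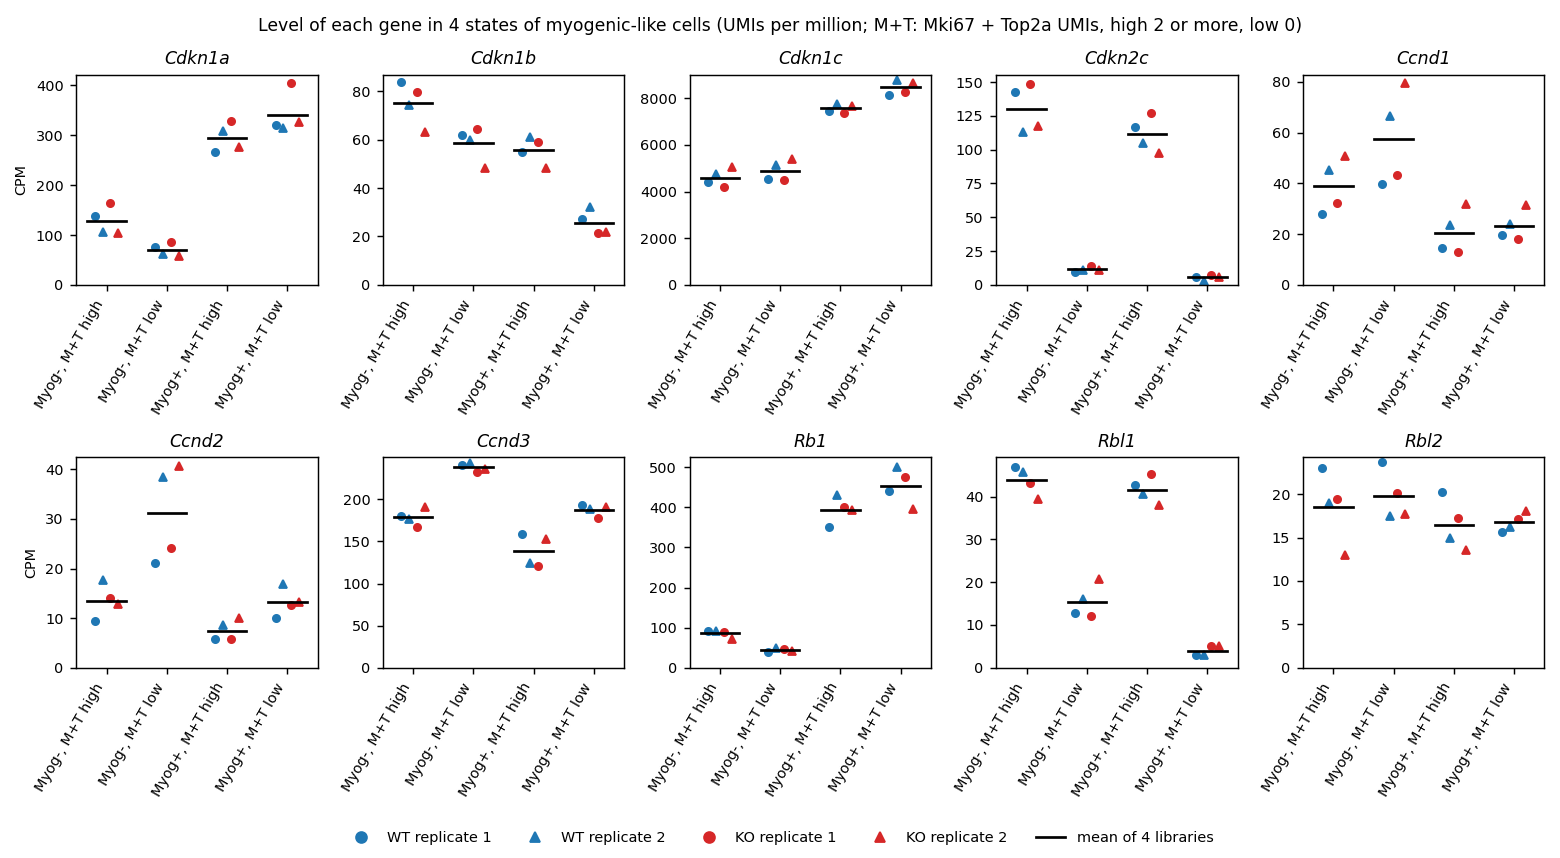
Each panel plots 1 gene's level in CPM (y, from 0) in 4 states of myogenic-like cells (x), Myog-negative or Myog-positive by Mki67 plus Top2a (M+T) high or low, with 1 point per library and a bar at the mean. Rb1, Cdkn1a and Cdkn1c separate by Myog, Cdkn2c and Rbl1 separate by Mki67 plus Top2a, and Ccnd1 shows the replicate 2 libraries above the replicate 1 libraries within each genotype.

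The same high and low groups were compared in 6 other classes. Cdkn2c was higher in high cells in 7 of 7 classes, with log2 changes from 3.48 to 4.61, and Rbl1 in 7 of 7, from 1.76 to 2.85. In FAP-like cells 8 members differed (5 higher, 3 lower; 50.9% of all tested genes), and Cdkn2c was 146, 122, 149 and 132 CPM in high and 6.10, 4.90, 5.35 and 5.96 CPM in low cells (log2 fold change 4.61 ± 0.052 SE, adjusted p = 1.25e-23). Rb1 was 40.9, 34.5, 35.4 and 32.6 CPM against 19.3, 19.9, 19.6 and 20.4 CPM (log2 fold change 0.84 ± 0.060 SE, adjusted p = 3.42e-10), and Cdkn1a 57.1, 66.6, 65.3 and 75.6 CPM against 33.8, 45.1, 41.7 and 47.8 CPM (log2 fold change 0.64 ± 0.041 SE, adjusted p = 4.29e-11). Both were higher in high FAP-like cells, where the pooled myogenic-like class had them lower. Ccnd2 was 126, 155, 134 and 148 CPM against 162, 229, 171 and 222 CPM (log2 fold change -0.48 ± 0.036 SE, adjusted p = 6.51e-10), while Ccnd1 did not pass (log2 fold change 0.047 ± 0.044 SE, adjusted p = 0.395). Cdkn1b was higher in high FAP-like cells (0.24 ± 0.045 SE), but lower (-0.19) when cycle genes were kept in the clustering.

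In glial-like cells Cdkn1b and Cdkn1c fell further than in any other of the 7 classes. There 7 members differed (3 higher, 4 lower; 32.9% of all tested genes). Cdkn1c was 517, 523, 526 and 568 CPM in high and 1749, 1070.1, 1485 and 1182 CPM in low cells (log2 fold change -1.32 ± 0.090 SE, adjusted p = 3.21e-09). Cdkn1b was 81.4, 85.2, 85.7 and 82.2 CPM against 205, 129, 192 and 109.5 CPM (log2 fold change -0.89 ± 0.12 SE, adjusted p = 1.79e-05), the only class of the 7 in which it was called lower. Ccnd1 was 828, 823, 831 and 853 CPM against 1227, 1478, 1296 and 1287 CPM (log2 fold change -0.64 ± 0.048 SE, adjusted p = 1.38e-08), and Ccnd2 152, 179.8, 209 and 187 CPM against 433, 516, 438 and 526 CPM (log2 fold change -1.37 ± 0.072 SE, adjusted p = 7.74e-11). The ranges of these 4 genes do not overlap. FAP markers summed to 10702 to 11574 CPM in high and 9929.8 to 11049.7 CPM in low glial-like cells, ranges that overlap.

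In endothelial-like cells 7 members differed (5 higher, 2 lower; 21.3%), Cdkn1a most after Cdkn2c and Rbl1, at 41.8, 59.9, 54.4 and 80.7 CPM in high and 21.8, 16.7, 22.0 and 24.1 CPM in low cells (log2 fold change 1.49 ± 0.16 SE, adjusted p = 5.59e-06). Smooth muscle or pericyte-like cells had 6 members called (5 higher, 1 lower; 22.6%), and tenocyte-like cells 6 (5 higher, 1 lower; 32.8%). In both the member called lower was Ccnd2, which was 216, 242, 245 and 264 CPM against 432, 475, 445 and 452 CPM in the former (log2 fold change -0.87 ± 0.060 SE, adjusted p = 1.28e-10) and changed by -0.66 ± 0.056 SE in the latter. In macrophage-like cells only Cdkn2c (3.89 ± 0.14 SE) and Rbl1 (1.76 ± 0.20 SE) were called (18.6% of all tested genes), both higher, in a class of 238 to 312 cells a library. There the count was 5 with high set at 5 UMIs and 4 with groups set on thinned cells. Over the 7 classes Ccnd2 was called lower in 6, Ccnd3 lower in 2, and Rbl2 was called in none.

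**Figure D4:**
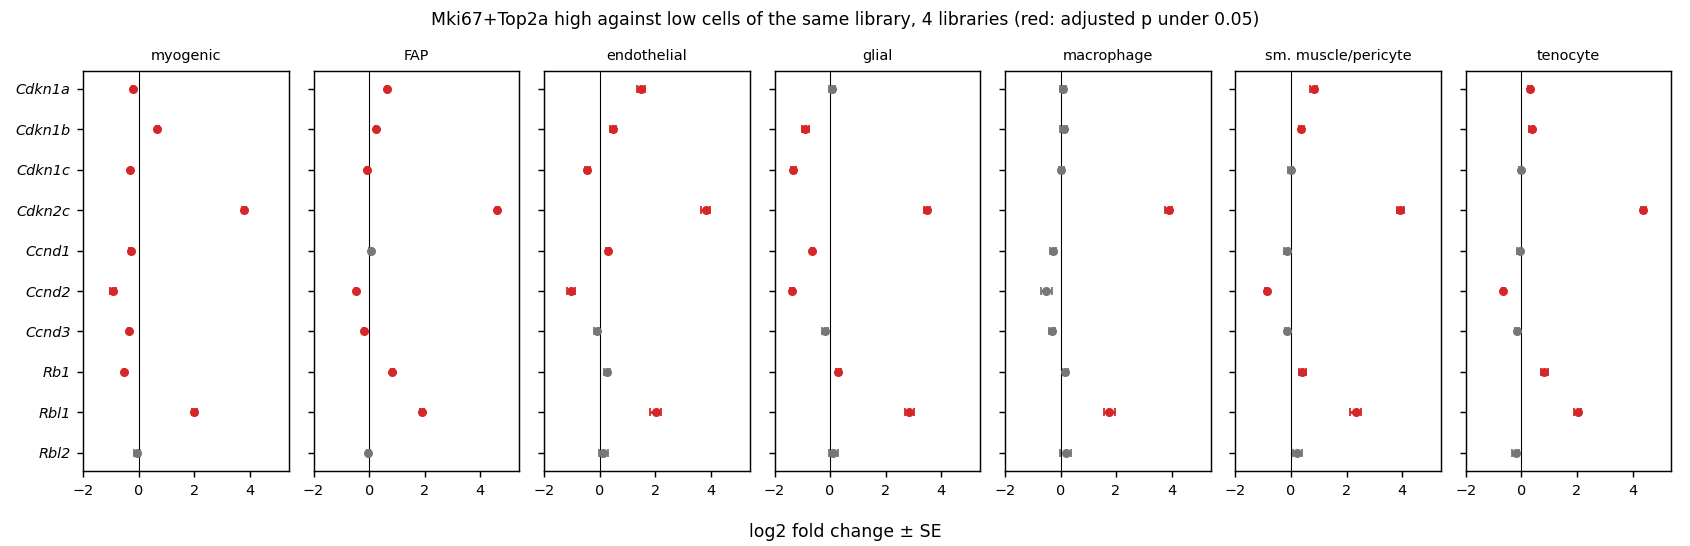
Each panel plots, for 1 class, the log2 fold change of each gene between Mki67 plus Top2a high and low cells of the same library (x) with its standard error (bars); red points have an adjusted p under 0.05. Cdkn2c and Rbl1 lie far to the right in all 7 classes, and Rb1 and Cdkn1a lie left of 0 with a call only in the myogenic-like class.

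An interaction term asked whether the change from low to high cells was unequal in the myogenic-like and FAP-like classes. It passed for 7 members (1 higher, 6 lower in the myogenic-like class), where 25.6% of all tested genes passed. The difference in log2 change was -1.40 ± 0.089 SE for Rb1 (adjusted p = 5.32e-10), -0.89 ± 0.12 SE for Cdkn1a (9.11e-06) and -0.85 ± 0.11 SE for Cdkn2c (1.09e-05). Ccnd2 (-0.47 ± 0.13 SE), Cdkn1c (-0.26 ± 0.042 SE) and Ccnd3 (-0.19 ± 0.058 SE) also changed less upward or more downward in the myogenic-like class. Cdkn1b alone differed the other way (0.39 ± 0.083 SE, adjusted p = 0.00127). Without the library term 4 members passed, and with cycle genes kept in the clustering the Cdkn2c difference turned to 1.77. The interaction was fitted on the pooled myogenic-like class and was not refitted in Myog-negative cells. Within Myog-negative cells the changes of Rb1 and Cdkn1a were 0.98 and 0.87, beside 0.84 and 0.64 in FAP-like cells. Within Myog-positive cells both genes were instead lower in high cells in each of the 4 libraries, with overlapping ranges. Their means there were 394 against 453 CPM for Rb1 and 295 against 342 CPM for Cdkn1a.

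Other genes of the pathway were read from a list of 34 (CDKs, cyclins E, A and B, E2F factors and their partners, subunits of the DREAM complex, CDC25 phosphatases and other inhibitors). In high myogenic-like cells 29 of 33 tested were higher and 0 lower (median 1.26 against -0.015 over all genes), where 56.0% of all tested genes were called. In FAP-like cells 32 of 34 were higher and 0 lower (median 1.61), where 50.9% of all tested genes were called. The high group was set by Mki67 and Top2a, themselves genes of dividing cells, so these counts say little by themselves. Cdk1, the mitotic kinase, rose by 3.47 ± 0.037 SE in myogenic-like cells and Cdkn2d, the p19 inhibitor and nearest relative of Cdkn2c, by 2.62 ± 0.058 SE. Cdk4, a partner of the D cyclins, rose by 0.31 ± 0.027 SE, and Cdk6 did not pass (-0.069 ± 0.048 SE, adjusted p = 0.231). In Myog-positive against Myog-negative low cells 8 of 31 were higher and 16 lower (median -0.45), where 60.9% of all tested genes were called. Cdk6 (-1.23 ± 0.081 SE) and Cdkn2d (-0.98 ± 0.14 SE) were among the lower.

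Since Cdkn1a is a target of p53, 12 other p53 targets were read beside it. In Myog-positive low cells 3 were higher and 5 lower, with a median of -0.16 against -0.009 over all genes, where 60.9% of all tested genes were called. Their summed level was 743, 759, 971 and 836 CPM in Myog-positive and 1116, 1074, 1396 and 1127 CPM in Myog-negative cells. Among them Ccng1 rose by 1.04 ± 0.16 SE. In high FAP-like cells 2 of the 12 were higher and 7 lower (median -0.13 against -0.009 over all genes, 50.9% of which were called).

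The genes whose mean levels ran most like a member's over 13 cell groups (classes and myogenic stages) were found among 9605 genes by Pearson's r on the log scale. These values describe shared patterns over groups cut from the same 4 libraries. The stages among these groups were clustered with the genes that follow Mki67 and Top2a kept. Cdkn1c was most like Kcnq1ot1, the non-coding RNA of the same imprinted domain (r = 0.954). Cdkn2c was most like Cdk1 (0.967), Kif15 (0.959) and Anln (0.957), genes of mitosis, whereas Rbl1 was most like Rrm1 (0.973), Cdc45 (0.964) and Brca1 (0.963), genes of DNA synthesis and repair. Rb1 was most like Zbtb18 (0.951), Sh3glb1 (0.936) and Eif2ak1 (0.895). For a further 5 members the first gene was Prune2 for Cdkn1a (0.860), Mettl9 for Cdkn1b (0.863), Plekha1 for Ccnd1 (0.954), Stk39 for Ccnd2 (0.962) and Pwwp3b for Ccnd3 (0.873).

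The study asks what loss of SYISL does to fetal myogenic cells, and no member passed the test between KO and WT in any of 12 comparisons. In myogenic-like cells 0 of 10 members and 0.0% of all tested genes were called (edgeR; DESeq2 called 0 members and 6 genes), and 1 member, Cdkn1a, had an unadjusted p under 0.05. Its level was 166 and 156 CPM in the WT and 201 and 164 CPM in the KO libraries (log2 fold change 0.22 ± 0.094 SE, adjusted p = 0.96), with KO replicate 2 below WT replicate 1. The 12 other p53 targets summed to 895, 865, 1162 and 938 CPM in the same cells and to 684, 779, 953 and 937 CPM in FAP-like cells, both KO values above both WT values in each. That order held in 7 of 9 classes, glial-like and tenocyte-like cells being the exceptions. The log2 change of Cdkn1a was above 0 in 8 of 9, all but the tenocyte-like, with 0 called. The 9 classes come from the same 4 libraries and are not separate replicates. How many of all genes show such orders was not computed. The part of the p53 targets in the Cdkn1a values was not tested. In myogenic-like cells the log2 changes of the 10 members lay between -0.10 (Rbl2) and 0.28 (Ccnd1, 0.28 ± 0.25 SE). Cdkn1c was 5550.3 and 6089 CPM in the WT and 5435 and 6276 CPM in the KO libraries (0.052 ± 0.090 SE), Rb1 177 and 206 CPM in the WT and 183 and 174 CPM in the KO libraries (-0.061 ± 0.080 SE) and Ccnd3 197 and 192 CPM in the WT and 187 and 201 CPM in the KO libraries (0.040 ± 0.073 SE). At 2 libraries a genotype these standard errors are the precision of each change, and a miss does not show equal levels.

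Split by state, 0 members were called in Myog-negative low (0.0% of all tested genes), Myog-negative high (0.0%) and Myog-positive low cells (0.0743%). In Myog-positive low cells Cdkn1b was 27.3 and 32.1 CPM in the WT and 21.6 and 22.0 CPM in the KO libraries (log2 fold change -0.43 ± 0.17 SE, adjusted p = 0.86), lower in both KO libraries. In Myog-negative low cells Ccnd1 was 39.8 and 66.6 CPM in the WT and 43.5 and 79.5 CPM in the KO libraries, with replicate 2 the higher library in both genotypes. It was called only when KO replicate 1 was left out, which leaves 1 KO library, assumed to vary like the WT libraries.

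In the other classes 0 members were called in FAP-like (0.0% of all tested genes), endothelial-like (0.017%), glial-like (0.0%), macrophage-like (0.0%), tenocyte-like (0.0%), chondrocyte-like (0.0%) and mast-like cells (0.0982%, where Rbl1 fell below the low-count filter), and in smooth muscle or pericyte-like cells (0.135%). Over the 12 comparisons and 119 member tests, 8 had an unadjusted p under 0.05 with KO higher and 2 with KO lower, and DESeq2 called none. Most of these fall in comparisons for which no all-gene count at that level is given, so the count says little about the members. In smooth muscle or pericyte-like and in Myog-positive low cells 1 member was higher and 1 lower in KO. In mast-like cells 2 were higher and 0 lower. Over all genes, myogenic-like cells had 328 higher and 246 lower at that level of 14758 tested, and FAP-like cells 304 and 275 of 17932. Glial-like cells had 251 and 235 of 12825, macrophage-like cells 202 and 262 of 11444, and tenocyte-like cells 85 and 104 of 14634. Chondrocyte-like cells had 237 and 196 of 12264, Myog-negative low cells 224 and 213 of 11619, and Myog-negative high cells 235 and 241 of 12256. These are the comparisons with 0 called genes, and DESeq2 called 0 to 10 genes in them.

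The smallest adjusted p was that of Cdkn1c in smooth muscle or pericyte-like cells, at 428 and 365 CPM in the WT and 552 and 475 CPM in the KO libraries (log2 fold change 0.39 ± 0.094 SE, adjusted p = 0.205). Both KO values lay above both WT values. With all 4 libraries it was called when the replicate number was a block and when no low-count filter was used. It was also called without WT replicate 1 or without KO replicate 2, fits in which 1 genotype has 1 library, assumed to vary like the other genotype. Leaving out KO replicate 2 changed no other member's call between genotypes. FAP markers in the same cells summed to 2679, 2210.3, 4042 and 3239 CPM, also higher in both KO libraries, and FAP-like cells carry Cdkn1c at 3662 CPM; their part in the difference was not tested. In mast-like cells Cdkn1a was 196 and 223 CPM in the WT and 293 and 344 CPM in the KO libraries, both KO values above both WT values (log2 fold change 0.60 ± 0.14 SE, adjusted p = 0.355). Cdkn1c there was 235 and 258 CPM in the WT and 386 and 330.2 CPM in the KO libraries (log2 fold change 0.54 ± 0.14 SE, adjusted p = 0.397) while FAP markers summed to 854, 591, 2241 and 2135 CPM, with the same order of genotypes; here too their part was not tested. In macrophage-like cells Ccnd2 was 20.7 and 27.8 CPM in the WT and 36.0 and 39.8 CPM in the KO libraries (log2 fold change 0.67 ± 0.19 SE, adjusted p = 0.999).

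**Figure D5:**
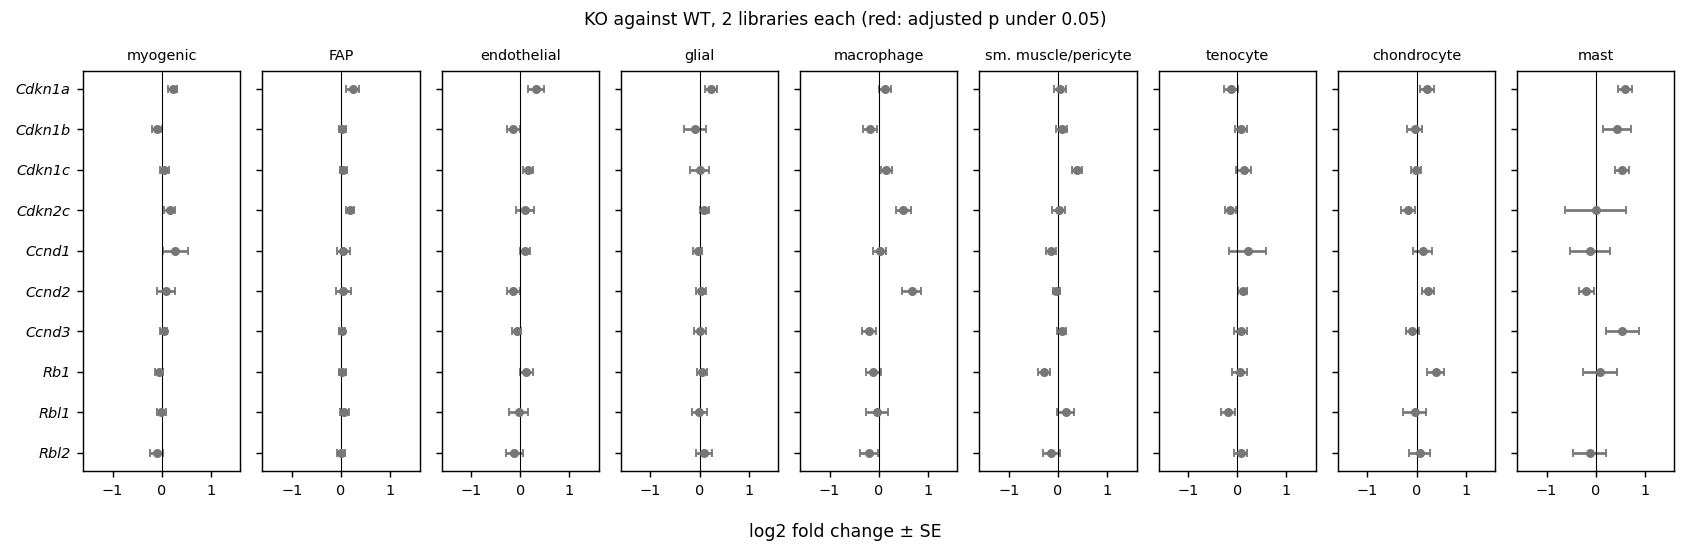
Each panel plots, for 1 class, the log2 fold change of each gene in KO against WT libraries (x) with its standard error (bars), 2 libraries a genotype. All points are grey, since no adjusted p was under 0.05, and the smallest adjusted p belongs to Cdkn1c in smooth muscle or pericyte-like cells (0.39 on the log2 scale). Rbl1 has no point in mast-like cells, where it fell below the low-count filter.

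Lastly, the share of myogenic-like cells in the Mki67 and Top2a high group was compared between genotypes. With each cell thinned to 2000 UMIs, which left 1482, 1313, 2043 and 1915 cells, it was 19.8, 18.9, 21.5 and 22.1%, each KO value above each WT value, a KO minus WT difference of 2.49 percentage points (exact permutation test, two-sided p = 0.333, the smallest that 2 against 2 libraries allow). Unthinned it was 34.0, 36.1, 35.9 and 37.1% (exact permutation p = 0.667), with overlapping genotypes. In FAP-like cells the thinned share was 7.06, 8.50, 8.43 and 9.83% (exact permutation p = 0.667). The Ccnd3 share of D cyclin UMIs in myogenic-like cells differed by -1.99 percentage points between KO and WT, and its direction changed when WT replicate 1 or KO replicate 2 was left out (exact permutation p = 0.667).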

How the data were processed

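Leg muscle of E18.5 fetuses was profiled as 4 single-cell libraries (10x 3′ chemistry), 2 WT and 2 SYISL KO, grouped by their GEO titles. The authors aligned the reads with Cell Ranger 7.2.0 to mm10 and deposited a matrix of raw counts (UMIs) for each library, in which duplicate reads are collapsed and no value is normalized. Per the labels, replicates are separate samples of a genotype.

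The study's stated limits on cells were applied (1000 to 6000 genes, 1000 to 25000 UMIs, less than 8% of them mitochondrial). Counts were scaled to 10000 UMIs per cell, logged and clustered (scanpy 1.11.5 in Python 3.11.15, 30 components, 20 neighbours, Leiden resolution 0.3) on the 2905 variable genes left after removing the members and 99 genes that followed Mki67 and Top2a (r over 0.15), a removal decided after the data were seen. Clusters were named from marker lists, which left 397 to 669 cells per library unnamed. Stages came from a further clustering of the myogenic-like cells without the members, in which the genes that follow Mki67 and Top2a were kept. Groups with under 50 cells in a library were not tested. UMIs were then summed per library and cell group. The sums were tested with edgeR 4.0.16 (R 4.3.3) by the quasi-likelihood test with TMM factors, its low-count filter and Benjamini-Hochberg adjustment over all genes, threshold 0.05. Within-library comparisons had library as a term. Genotypes were compared over 2 against 2 libraries. Alternatives included DESeq2 1.42.0, other factors, no filter, removal of Scrublet doublets (1.65 to 2.56% of cells, otherwise kept), other limits and leaving out each library. The tests were first checked on simulated counts. Shares were compared by two-sided exact permutation tests.

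Levels across clusters (myogenic-like against FAP-like, and stages) are given without a p, although a test had been listed, since those cells define the clusters. The members and the lists of pathway, p53, stress and marker genes were chosen with earlier results of these data known. All 10 members are named throughout, with genes from the 3 most like each by Pearson's r over 13 cell groups (log2 of CPM + 1, genes over 10 CPM). Those of Rbl2 are not reported here.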

Additional observations from a re-analysis of the deposited data

Results flagged for a closer look

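The change from Mki67 and Top2a low to high cells was unequal in the myogenic-like and FAP-like classes, by an interaction term (edgeR, adjusted over all genes), for 7 of the 10 genes. The difference in log2 change, myogenic-like minus FAP-like, was -1.40 for Rb1, -0.89 for Cdkn1a and -0.85 for Cdkn2c. It was -0.47 for Ccnd2, -0.26 for Cdkn1c and -0.19 for Ccnd3, and 0.39 for Cdkn1b. Of these, Rb1 and Cdkn1a moved in opposite directions in the 2 classes when all myogenic-like cells were pooled, while the other 5 moved in the same direction by different amounts. The call for Ccnd3 was lost under 9 alternatives and that for Ccnd2 under 3. In Myog-negative myogenic-like cells Rb1 and Cdkn1a changed by 0.98 and 0.87, the same direction as in FAP-like cells. In Myog-positive cells both were lower in high cells, the opposite direction to FAP-like cells. Their means there were 394 against 453 CPM for Rb1 and 295 against 342 CPM for Cdkn1a. With cycle genes kept in the clustering the Cdkn2c difference turned to 1.77.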

How the results depend on the processing

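Over 3027 member values recomputed under alternatives, 2754 kept their direction and side of the threshold. In the same direction, 47 lost and 33 gained a call. Direction turned in 187 values without a call in either fit and in 6 with a call in at least one of them. The cause of these changes was not tested. The 6 are given next. With Myog-negative cells only, the high against low change in myogenic-like cells was 0.87 for Cdkn1a and 0.98 for Rb1. With cycle genes kept in the clustering it was -0.19 for Cdkn1b in FAP-like cells and -0.018 for Cdkn1a in tenocyte-like cells, and the interaction of Cdkn2c was 1.77. With the looser cell filter Cdkn1c in smooth muscle or pericyte-like cells was 0.34. The number of members called in macrophage-like cells was 5 with high set at 5 UMIs and 4 with groups set on thinned cells, and in the interaction it was 4 without the library term.

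Between genotypes, 1 member (Cdkn1c) was called in smooth muscle or pericyte-like cells with no low-count filter and with the replicate block, and 0 to 1 when a library was left out. In Myog-negative low cells the count was 0 to 1 (Ccnd1, without KO replicate 1). The labels do not say whether a shared replicate number marks fetuses handled together, and with 2 pairs this could not be settled: deviations of same-numbered libraries correlated at 0.198 in myogenic-like and 0.229 in FAP-like cells. The replicate block changed no other member call and moved the genes called to 12 in myogenic-like, 73 in glial-like and 108 in smooth muscle or pericyte-like cells, from 0, 0 and 17. Leaving out a library moved the KO minus WT difference in D cyclin shares over -1.28 to 5.12 percentage points for Ccnd1, -1.24 to 1.39 for Ccnd2 and -5.75 to 1.77 for Ccnd3.

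DESeq2 called 4979 genes in the high against low comparison of myogenic-like cells (7596 by edgeR), 994 in endothelial-like (2278), 1769 in glial-like (3788), 912 in macrophage-like (1938), 1196 in smooth muscle or pericyte-like (2556), 2255 in tenocyte-like (4217) and 2942 in Myog-positive cells (5222). With cycle genes kept in the clustering, 4308 were called in FAP-like cells (8516), and without the library term 2555 in the interaction (3894). Between genotypes the count ranged over alternatives from 0 to 12 in myogenic-like (main 0), 0 to 19 in FAP-like (0), 0 to 145 in endothelial-like (2), 0 to 73 in glial-like (0), 0 to 26 in macrophage-like (0), 4 to 164 in smooth muscle or pericyte-like (17), 0 to 32 in tenocyte-like (0), 0 to 122 in chondrocyte-like (0), 0 to 214 in mast-like (7), 0 to 98 in Myog-negative low (0), 0 to 169 in Myog-negative high (0) and 1 to 116 in Myog-positive low cells (8). With 2 libraries a genotype, changes that are small beside their standard errors were not detectable.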
